A study of Mus musculus with 13 samples.

Results

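The 45 genes described here encode transcription factors that set the identity of blood cells, together with the receptors and partner proteins through which they act. They were taken by name from the gene column of the single-base (SNV), insertion and deletion (INDEL) and copy number tables, and stand among 21627 protein-coding genes of the RefSeq table used. The genes were Runx1, Runx2, Runx3, Gata2, Gata3, Spi1, Cebpa, Cebpb, Cebpe, Pax5, Ebf1, Tcf3, Tcf4, Tcf12, Ikzf1, Ikzf2, Ikzf3, Etv6, Erg, Fli1, Lmo2, Tal1, Lyl1, Bcl11a, Bcl11b, Lef1, Tcf7, Notch1, Notch3, Myb, Meis1, Hoxa9, Gfi1, Gfi1b, Klf4, Irf4, Irf8, Foxo1, Bach2, Mef2c, Tox, Zeb2, Wt1, Id2 and Id3. Their spans sum to 4.61 Mb on 17 chromosomes and run from 1.52 kb (Cebpb) to 390.0 kb (Ebf1), with a median of 47.1 kb against 17.3 kb for all protein-coding genes.

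Blood cell fate is set by small sets of such factors acting in combination. Runx, Gata, Ets and helix-loop-helix proteins act in stem and progenitor cells, Spi1 and the Cebp proteins drive myeloid cells, Ebf1, Pax5, Tcf3 and the Ikaros proteins drive B cells, and Notch signalling with Gata3, Tcf7 and Bcl11b drives T cells. Many of these genes are recurrently mutated, deleted, fused or switched on in human and mouse acute leukaemia, where coding changes, copy losses and translocations are the usual lesions.

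Whole-genome DNA was sequenced from bone marrow cells positive for green fluorescent protein (GFP), sorted from C57BL/6 mice of 8 to 10 weeks, with 1 library in each of 7 groups. The leukaemias are models of N-Myc overexpression, with N-Myc carried by a retrovirus. B-ALL cells (B-lymphoid acute leukaemia) were sorted as B220+GFP+, T-ALL cells (T-lymphoid) as CD3+GFP+, AML cells (myeloid) as Mac1+Gr1+GFP+ and AUL cells (undifferentiated) as GFP+ and negative for all 4 markers, from 2000000 cells each. M-MPAL and T-MPAL came from mixed phenotype leukaemia, sorted into a fraction with myeloid and one with T-cell markers: M-MPAL was GFP+ and positive for Mac1/Gr1 but not for B220 or CD3/4/8, and T-MPAL was GFP+ and positive for CD3/4/8 but not for Mac1/Gr1 or B220. The empty control was sorted as GFP+ only, and it and both MPAL fractions came from 1000000 cells each, under a protocol entry of their own. The labels do not say what the control's cells carry besides GFP, nor how many animals stand behind a library. Another 6 samples of the series concern viral integration sites and were not analysed here.

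Median depth at the 7797 autosomal SNVs that were called in all 7 libraries outside segmental duplications was 26 to 32 reads, lowest in the empty control. Each group had 1 library, so differences between groups lack a replicate check and were not tested. All intervals are exact 95% intervals that cover counting error only. No normal DNA of the same animals is named in the labels, so inherited and acquired calls cannot be told apart. The tables list calls only, so a library without a call may have had too few reads at that position.

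No protein-altering call was found in any of the 45 genes in any library. Across all protein-coding genes, 339 of 21627 (1.57%) had a nonsynonymous, stop, splicing or coding INDEL call in at least 1 of the 7 libraries, and a list of 50 other blood transcription factor and cofactor genes, such as Gata1, Cebpd, Prdm1, Mecom and Rbpj, also had 0. Against that background, 0 of 45 does not set these genes apart from other genes. Of 76 distinct SNVs within the gene bodies (exons, splice sites, untranslated regions and introns; 5 intergenic SNVs that name Runx2 are left out), 74 were intronic, 1 was exonic and 1 lay in a 3′ untranslated region (UTR). Of 943 distinct INDELs there, 922 were intronic, 21 lay in UTRs and 0 in coding exons. INDELs lay almost wholly in annotated repeats (926 of 943, 98.2%), and 835 of them in simple repeats, which are short motifs copied in tandem, while 42 of the 76 SNVs (55.3%) lay in repeats. Counted per library, repeats held 94.8 to 98.5% of these INDELs, against 94.7 to 95.6% of INDELs in all gene bodies. For SNVs the shares were 45.2 to 54.2% against 50.3 to 53.7%, so both kinds were near the background.

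The only exonic call was in Cebpb, a single-exon gene for a CCAAT/enhancer-binding protein of macrophages and granulocytes. In T-ALL, 6 of 23 reads (26.1%, interval 10.2 to 48.4%) carried C>G at chr2:167689852 (mm10), with a quality score of 69. It was annotated as synonymous in exon 1 (T277T), and no other library had it. The only UTR SNV was A>T at chr2:9857820 in the 3′ UTR of Gata3, a T-cell and helper T-cell factor, carried in B-ALL by 4 of 7 reads at a quality of 20.9, in a low-complexity stretch. Both calls lay below the quality of 100 used for the stringent set described next.

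A call counted as private when its library had 10 or more reads there and none of the other 6 listed the same change, whatever its depth. It counted as stringent when its quality also reached 100, 4 or more alternative reads made up 20% or more of the reads, and it lay outside segmental duplications. AUL had 8 private SNVs in the 45 genes (interval 3.45 to 15.8), B-ALL 6, AML 5, T-ALL, M-MPAL and the empty control 3 each, and T-MPAL 1. AUL also had 7 stringent private SNVs (interval 2.81 to 14.4), each MPAL fraction had 1, and B-ALL, T-ALL, AML and the empty control had 0, where a count of 0 has an upper bound of 3.69. The leukaemia that lacked lineage surface markers thus held 7 of the 9 stringent private SNVs, each in a different gene. The private rule leaves out calls shared by B-ALL and AML or by the MPAL fractions. Where these partners were allowed to share a call, AML had 1 and each MPAL fraction 3, with AUL still at 7. No partner was set for AUL.

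**Figure D1:**
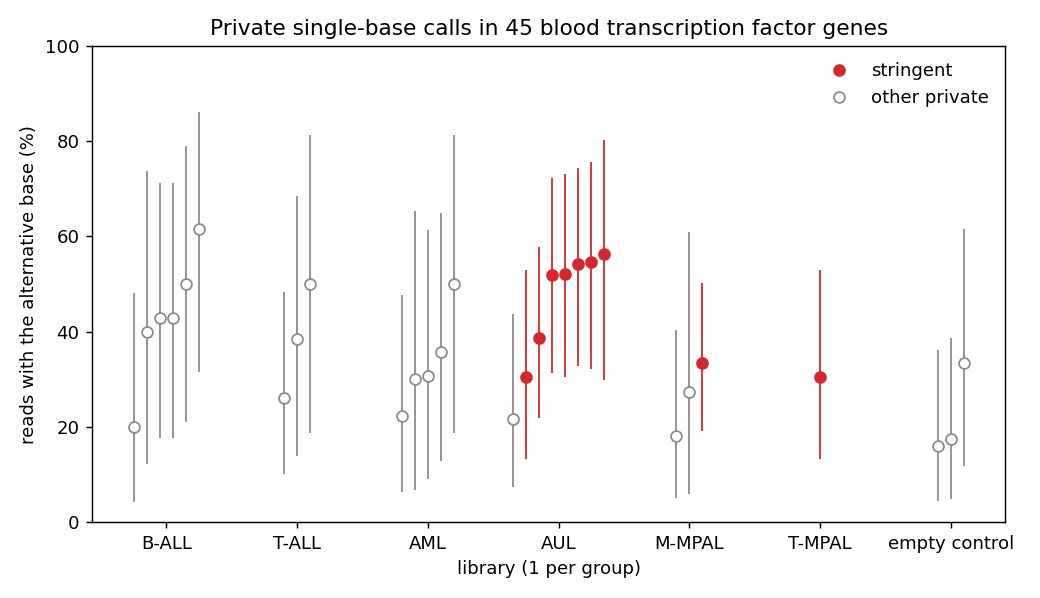
Share of reads with the alternative base (%, y axis) for each private SNV in the 45 genes by library (x axis), with exact 95% intervals; filled points are stringent calls and open points the other private calls. AUL holds 7 of the 9 filled points, with 5 of them between 52.0 and 56.3%, while the 3 calls of the empty control are all open.

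The 7 AUL variants fell in factors of several lineages. Pax5, the B-cell identity factor, carried C>T in 7 of 23 reads (30.4%, interval 13.2 to 52.9%). Bach2, a repressor of B- and T-cell differentiation, carried C>T in 13 of 25 reads (52.0%, interval 31.3 to 72.2%). Foxo1, a factor downstream of growth signalling needed for early B cells, carried C>G in 13 of 24 reads (54.2%, interval 32.8 to 74.5%). These 3 calls all lay in short interspersed elements (SINE).

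Among the progenitor factors, Etv6, an Ets repressor and a frequent fusion partner in leukaemia, carried C>T in 12 of 22 reads (54.5%, interval 32.2 to 75.6%) within a long terminal repeat. Erg, an Ets factor of stem cells, carried A>G in 12 of 31 reads (38.7%, interval 21.9 to 57.8%) outside repeats. Lef1, the partner of beta-catenin in lymphoid progenitors, carried T>G in 12 of 23 reads (52.2%, interval 30.6 to 73.2%) outside repeats. Tcf4, an E protein of plasmacytoid and B cells, carried C>G in 9 of 16 reads (56.3%, interval 29.9 to 80.3%) outside repeats. All 7 were intronic, were listed heterozygous and had no dbSNP entry, with qualities from 128 to 222, and their shares overlapped one another within their intervals. In the order of the shares Tcf4 was highest and Pax5 lowest, and no neighbours in that order differed beyond their intervals.

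In the MPAL fractions the single stringent calls were in Runx2 and Tcf4. M-MPAL carried T>C in Runx2, a Runx factor best known from bone, in 13 of 39 reads (33.3%, interval 19.1 to 50.2%) at a quality of 174, within a long terminal repeat. T-MPAL carried G>C in Tcf4 in 7 of 23 reads (30.4%, interval 13.2 to 52.9%) at a quality of 115, within a SINE. Neither call was listed in the other fraction.

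The 20 private SNVs that were not stringent had 3 to 8 alternative reads, a median quality of 33.3 and a highest quality of 69, and 11 of them lay in simple repeats. B-ALL held 3 of them side by side in Erg, all A>C within 13 bases, in 6 of 14, 6 of 12 and 6 of 14 reads. The empty control held 1 each in Ebf1 (5 of 15 reads), Etv6 (4 of 25 reads) and Spi1 (4 of 23 reads), the last of these the gene of the myeloid and B-cell factor PU.1. AML had 5, in Ebf1, Foxo1, Ikzf3 and Mef2c, and all 5 lay in repeats. Weak private calls were therefore present in the control and in 5 of the 6 leukaemias, T-MPAL having none.

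Over all protein-coding genes, AUL also stood highest, with calls shared by B-ALL and AML or by the MPAL fractions again left out. The share of genes with a stringent private SNV was 5.03% in AUL, 1.7% in M-MPAL and 0.842% in T-MPAL. T-ALL stood at 1.3%, AML at 0.361%, the empty control at 0.324% and B-ALL at 0.305%. With any private SNV AUL stood at 7.13% and T-ALL at 3.85%. The other shares ran from 2.14% (T-MPAL) over 2.21% (empty control), 2.47% (B-ALL) and 2.54% (AML) to 2.88% (M-MPAL). Among the 45 genes, 7 (15.6%) were hit in AUL, but these genes are longer than most, so the rate per length is the closer comparison. AUL had 1.52 stringent private SNVs per Mb of the 45 genes (interval 0.611 to 3.13) and 1.38 per Mb of all protein-coding genes. M-MPAL had 0.217 (interval 0.00549 to 1.21) against 0.404, and T-MPAL 0.217 (interval 0.00549 to 1.21) against 0.194. In each of the 7 libraries the all-gene rate lay inside the interval of the 45 genes. Among the 50 other blood genes, Tle1 had a stringent private SNV in M-MPAL and Zfpm1 in T-MPAL. AUL had 0 in those 50 genes, where the upper bound was 1.21 per Mb of their 3.06 Mb, below the AUL all-gene rate of 1.38.

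**Figure D2:**
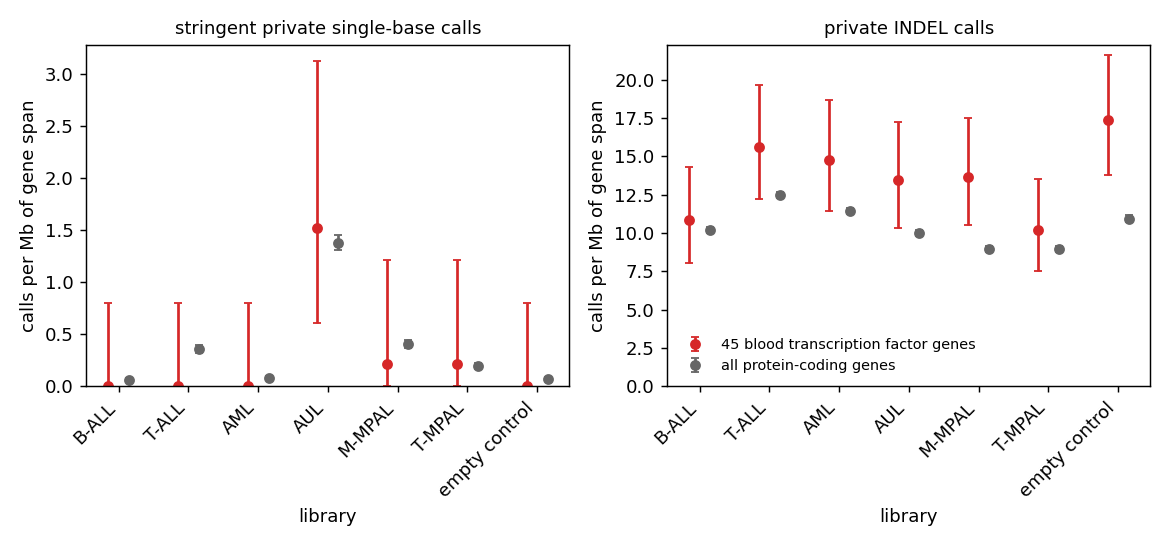
Calls per Mb of gene span (y axes) in each library (x axes) for the 45 genes and for all protein-coding genes: stringent private SNVs on the left, private INDELs on the right; bars are exact 95% Poisson intervals. On the left AUL is highest for both sets, at 1.52 and 1.38 per Mb; on the right the highest point of the 45 genes is the empty control, at 17.4 per Mb.

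The MPAL fractions shared well-supported SNVs in the B-cell factor gene Ebf1 and in Ikzf2, the gene of the Ikaros family member Helios. In Ebf1, T>C at chr11:44820189 was carried by 12 of 24 reads in M-MPAL (50%, interval 29.1 to 70.9%) and by 19 of 33 in T-MPAL (57.6%, interval 39.2 to 74.5%). In Ikzf2, A>C at chr1:69608301 was carried by 12 of 23 reads in M-MPAL (52.2%, interval 30.6 to 73.2%) and by 15 of 25 in T-MPAL (60%, interval 38.7 to 78.9%). Each share overlapped that of the other fraction, all 4 qualities were 202 or higher, and none of the other 5 libraries listed either variant. A weaker call shared by these fractions alone was T>C in Bcl11a, a repressor of fetal globin genes that is also needed for B cells, in 5 of 16 and 3 of 12 reads within a simple repeat. The Bcl11a change had a dbSNP entry.

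B-ALL and AML also shared 3 SNVs that no other library listed. Over all protein-coding genes they shared 376 such SNVs, the most of the 21 pairs. M-MPAL and T-MPAL came next with 322, so both pairs also led outside these genes. In Ebf1, C>T at chr11:44853042 was carried by 5 of 24 reads in B-ALL (20.8%, interval 7.13 to 42.2%) and by 6 of 17 in AML (35.3%, interval 14.2 to 61.7%). In Bach2, T>G rested on 3 of 7 and 3 of 6 reads, and in Tcf4, A>C rested on 6 of 8 and 3 of 6 reads, both under 10 reads of depth. The Tcf4 change had a dbSNP entry. T-ALL and T-MPAL alone shared G>A in Erg at chr16:95419047, in 10 of 20 and 9 of 21 reads. Its qualities were 102 and 62. B-ALL and T-ALL alone shared C>G in Runx2 at chr17:44617151, in 6 of 10 and 7 of 11 reads. Both changes lay in simple repeats and had dbSNP entries. Among INDELs, B-ALL and AML shared 19 in the 45 genes that no other library listed, the most of the 21 pairs, and M-MPAL and T-MPAL shared 5. Over all protein-coding genes at any depth, B-ALL and AML shared 2442, also the most, and M-MPAL and T-MPAL 1466. With 10 or more reads in both libraries B-ALL and AML shared 14, followed by T-ALL and T-MPAL with 12, and M-MPAL and T-MPAL shared 4. Over all protein-coding genes at that depth, B-ALL and AML shared 1587 such INDELs, T-ALL and AML 1600, and M-MPAL and T-MPAL 1173. T-ALL and T-MPAL shared 1264 there, rank 8 of the 21 pairs, so this pair did not stand out over all genes. Among the 19 was an insertion of TC in Runx1 at chr16:92648142, in 12 of 25 reads in B-ALL and 14 of 26 in AML, a change with a dbSNP entry.

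Variants found in all 7 libraries numbered 11 SNVs and 14 INDELs within the gene bodies. The SNVs were in Tcf4 (5), Erg (3), Runx2 (1), Etv6 (1) and Tox (1), a factor of developing T cells. At the Tox site, G>A at chr4:6713163, every read carried the alternative base in every library, from 10 of 10 in B-ALL to 35 of 35 in T-ALL. In Tcf12, an E protein of T-cell progenitors, G>A at chr9:72033218 was carried by every read in 6 libraries, from 9 of 9 in both MPAL fractions to 20 of 20 in AML and AUL, and was not listed in the empty control. Its depth in the control is not given by a table of calls. Notch3, a Notch receptor, had C>A at chr17:32165011 and chr17:32165015 in every read of the same 5 libraries (4 to 15 reads) and no call in T-MPAL or the control.

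Private INDELs were present in every library. The control had 80, T-ALL 72, AML 68, M-MPAL 63, AUL 62, B-ALL 50 and T-MPAL 47. The control's place at the top was not kept with 20 or more reads (26 against 34 in T-ALL) or with a quality of 100 (2 against 10 in T-ALL). Of these 442, 390 lay in simple repeats, 333 were deletions and 328 changed the length by 2 bases. Their rate per Mb of the 45 genes was above that of all protein-coding genes beyond the counting interval in the control (17.4, interval 13.8 to 21.6, against 10.9), M-MPAL (13.7, interval 10.5 to 17.5, against 8.96), AUL (13.5, interval 10.3 to 17.2, against 9.97) and, narrowly, AML (14.8 against 11.4). In T-ALL (15.6, interval 12.2 to 19.7, against 12.5), B-ALL (10.8, interval 8.05 to 14.3, against 10.2) and T-MPAL (10.2, interval 7.49 to 13.6, against 8.95) the all-gene rate lay inside the interval. These intervals cover counting error only, and the control is among the libraries with the difference. Runx1 in AML and Ebf1 in M-MPAL held 11 each, the most of any gene and library, and the control held 8 in Runx1 and 7 in Ebf1.

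**Figure D3:**
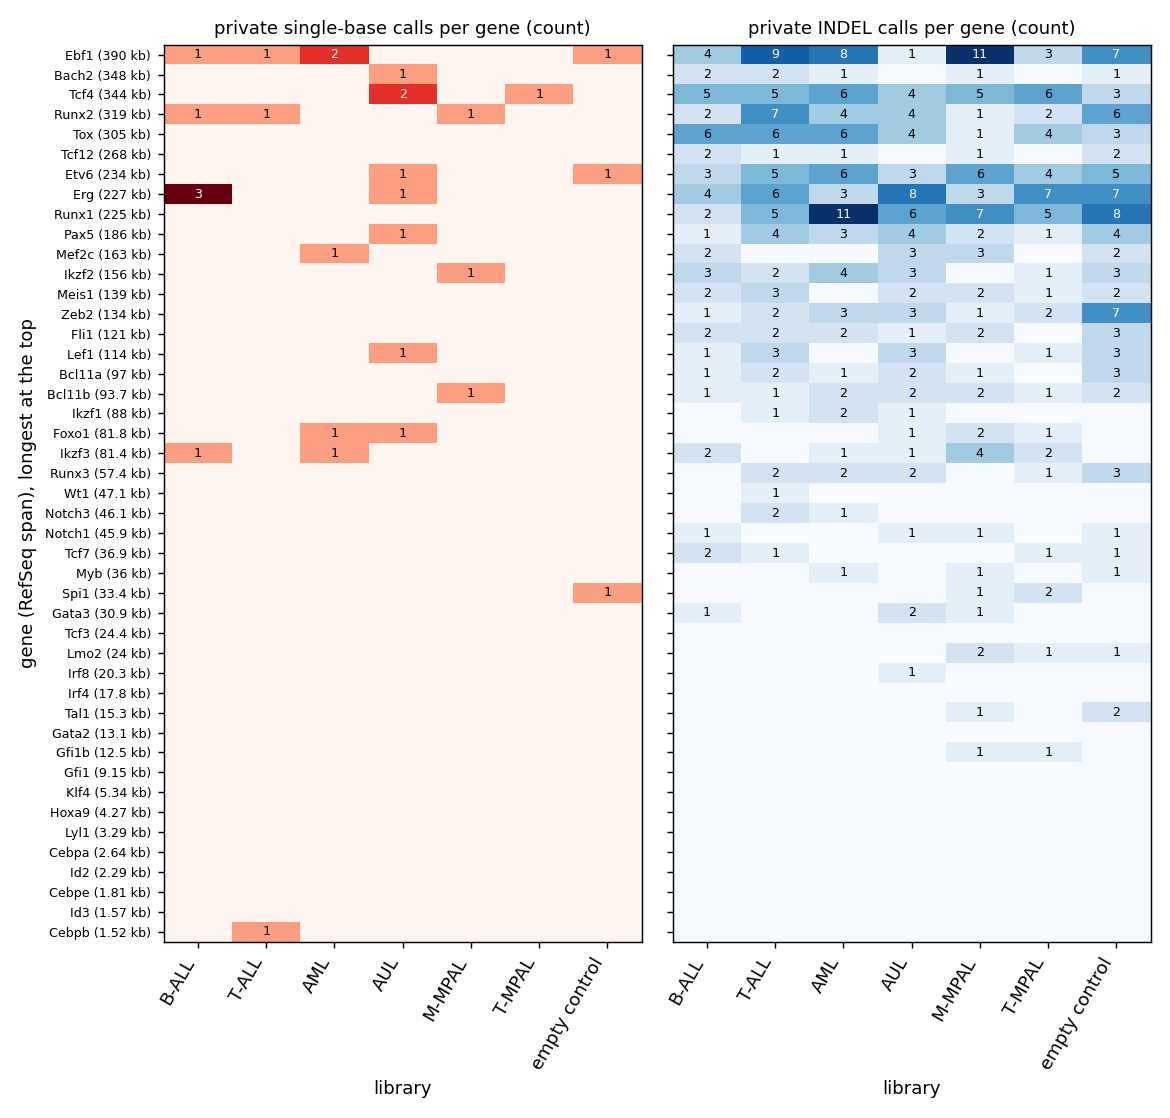
Number of private SNVs (left) and private INDELs (right) in each of the 45 genes (rows, longest at the top, with RefSeq span in kb) and library (columns); an empty cell is 0. Calls gather in the long genes at the top, and the empty control, with 80 private INDELs, has the fullest column of the right panel.

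The 16 genes longer than 100 kb hold 79.7% of the summed span, 77.6% of the distinct SNVs and 82.9% of the distinct INDELs. Gata2, Cebpa, Cebpe, Lyl1, Hoxa9, Klf4, Irf4, Id2 and Id3, none longer than 17.8 kb, had no SNV or INDEL within the gene body in any library. Tcf3, Ikzf1, Fli1, Lmo2, Tal1, Tcf7, Notch1, Gfi1, Gfi1b, Irf8, Zeb2 and Wt1 had INDELs but no SNV. In 27 of the 45 genes no library had a stringent private call of either kind: besides the 9 without any call these were Runx3, Spi1, Cebpb, Tcf3, Tcf12, Ikzf1, Ikzf2, Fli1, Lmo2, Tal1, Bcl11b, Tcf7, Notch3, Myb, Gfi1, Gfi1b, Irf8 and Wt1. The other 18 (40%) had one, against 17.7% of all protein-coding genes. Per Mb the 45 genes had 9.98 such calls (interval 7.31 to 13.3) and all genes 7.38, inside the interval. The myeloid genes Spi1, Cebpa, Cebpb and Cebpe, none longer than 33.4 kb and so with little room for calls, were among the 27. Of the T-cell genes Notch3, Tcf7 and Bcl11b were too, while Notch1 and Gata3 had stringent INDELs, in B-ALL and AUL.

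Stringent private INDELs numbered 10 in T-ALL, 7 in AML, 6 in B-ALL, 5 each in AUL and M-MPAL, and 2 each in T-MPAL and the empty control. The genes they hit were 7 of 45 in T-ALL against 3.93% of all protein-coding genes, 4 in AML against 2.66%, 5 in B-ALL against 2.15%, 3 in AUL against 3.05%, 5 in M-MPAL against 3.2%, 2 in T-MPAL against 2.42% and 2 in the control against 2.71%. Per Mb, T-ALL had 2.17 in the 45 genes (interval 1.04 to 3.99) and 0.993 in all genes, just below that interval, while in the other 6 libraries the all-gene rate lay inside it, as in AML (1.52, interval 0.611 to 3.13, against 0.650) and the control (0.434, interval 0.0525 to 1.57, against 0.625). AML had 3 of its 7 in Runx1, a stem-cell factor often mutated in human leukaemia: deletions of 2 bases in 11 of 41 reads (26.8%, interval 14.2 to 42.9%), 5 of 15 (33.3%, interval 11.8 to 61.6%) and 12 of 28 (42.9%, interval 24.5 to 62.8%), all in simple repeats of introns. T-MPAL lacked 1 AAAAC unit of a Runx1 repeat in 13 of 24 reads (54.2%, interval 32.8 to 74.5%) at a quality of 222. This change had a dbSNP entry. So had stringent private INDELs in Ebf1 and Runx2 (T-ALL), Erg (AUL), Etv6 (B-ALL) and Ikzf3 (M-MPAL). In AUL, a site in Gata3 was listed with alternative alleles in 10 of 10 reads, a deletion of AC and an insertion of ACAC, and Erg had such calls in 17 of 17 and 10 of 10 reads. At these sites the genotype names a pair of different alternative alleles, and the read count covers both, so the 2 Gata3 calls are 1 site. The 2 stringent INDELs of the control were in Erg (7 of 24 reads) and Etv6 (7 of 16 reads), so such calls were not limited to leukaemias.

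The reference and alternative alleles below show what these calls are. They were chosen because 3 of them, in Ikzf3, Runx2 and Mef2c, are the only stringent private INDELs outside annotated repeats, Notch1 is the receptor most often mutated in T-cell leukaemia, and the Tcf12 call is the control's private INDEL outside repeats. Sequences run 5′ to 3′ on the plus strand of mm10, and capitals mark the lost bases.
Ikzf3, M-MPAL, reference: aAGagagagagagagagaga
Ikzf3, M-MPAL, alternative: aagagagagagagagaga
Runx2, M-MPAL, reference: aAGagagagagagagaga
Runx2, M-MPAL, alternative: aagagagagagagaga
Mef2c, AUL, reference: tAGagagagagagagagag
Mef2c, AUL, alternative: tagagagagagagagag
Notch1, B-ALL, reference: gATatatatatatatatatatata
Notch1, B-ALL, alternative: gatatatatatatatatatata
Runx1, AML, reference: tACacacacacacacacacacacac
Runx1, AML, alternative: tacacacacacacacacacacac
Tcf12, empty control, reference: gTCtctctctctctctctc
Tcf12, empty control, alternative: gtctctctctctctctc

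Each of the 6 calls is the loss of 1 unit from a tandem run of a 2-base motif, whether or not the repeat annotation covers it. Ikzf3, the gene of the lymphoid Ikaros protein Aiolos, lost it in 7 of 27 reads (25.9%, interval 11.1 to 46.3%) at chr11:98515162-98515181. Runx2 lost it in 6 of 23 reads (26.1%, interval 10.2 to 48.4%) at chr17:44647102-44647119. Mef2c, a factor of lymphoid and myeloid progenitors, lost it in 5 of 17 reads (29.4%, interval 10.3 to 56.0%) at chr13:83551385-83551403. Notch1 lost it in 10 of 27 reads (37.0%, interval 19.4 to 57.6%) at chr2:26480840-26480863, in an intron and in B-ALL, not in T-ALL. The Runx1 run at chr16:92758465-92758489 is the AML call in 5 of 15 reads named above. The control's Tcf12 run at chr9:72104839-72104857 lost a unit in 4 of 18 reads (22.2%, interval 6.41 to 47.6%), and its interval overlapped those of the 5 leukaemia calls.

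UTR calls in 1 to 6 libraries were found in 13 of the 45 genes (28.9%), against 7.61% of all protein-coding genes. Per Mb of gene span, UTRs not being measured apart, the 45 genes had 4.34 such calls (interval 2.65 to 6.70) and all genes 2.64, just below that interval. In Runx2, T-ALL had an insertion of GAA in 5 of 12 reads and a deletion of GAG in 5 of 14, with qualities of 117 and 122, 39 bases apart in a GA-rich simple repeat of the 3′ UTR, and the control had a deletion of GAA at the first position in 3 of 19 reads. Runx1 lost TG in its 3′ UTR in 10 of 26 reads in T-ALL and 3 of 17 in T-MPAL. Runx3, a factor of cytotoxic T cells, lost AC in 4 of 8 reads in T-ALL, 5 of 13 in AML and 3 of 12 in T-MPAL. All 3 Runx genes thus carried a 3′ UTR repeat call in T-ALL, each with at most 10 alternative reads. T-ALL also had the most 3′ UTR INDELs in the 45 genes, 11 against 4 to 7 in the other libraries. Its INDEL list was the longest too, at 132423 calls. The share of all genes with such a call in T-ALL alone was not counted.

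Of the lymphoid genes, Lef1 lost GT in its 5′ UTR in 5 of 15 reads in AML, 7 of 25 in AUL and 6 of 24 in T-MPAL. Bcl11a lost GA in M-MPAL in 4 of 20 reads at chr11:24166408, and at chr11:24167653 in 5 of 13 reads in M-MPAL and 5 of 14 in T-MPAL. Bcl11b, a tumour suppressor of T cells, lost G in a low-complexity 3′ UTR stretch at chr12:107911725 in 6 libraries including the control (2 to 9 alternative reads), next to an insertion in all 7, and T-ALL had a further inserted G there in 6 of 6 reads. Bach2 lost GT in 6 of 20 reads in T-ALL. Erg lost TG in 5 of 32 reads in AUL and gained it in 6 of 20 in T-MPAL at the same position.

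Among the other genes, Zeb2, a zinc-finger repressor, lost TG in 4 of 17 reads in T-ALL and 5 of 17 in M-MPAL. Mef2c lost GTTT in 3 of 23 reads in B-ALL, and Meis1, the Hox cofactor of stem cells, lost AGAG in AML in 2 of 2 reads. Tcf4 lost GAGA in its 5′ UTR in 6 of 12 reads in AML, and in its 3′ UTR lost GT in AML (5 of 22), AUL (4 of 20) and T-MPAL (6 of 24) and gained it in T-ALL (5 of 25). Ebf1 had a UTR call too, but in all 7 libraries. All UTR INDELs but that of Bcl11a at chr11:24166408 lay in annotated repeats. The GAG deletion in Runx2, the Bcl11a deletion at chr11:24167653, the lost G and the further inserted G in Bcl11b, and the Ebf1 call had dbSNP entries.

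Promoter windows of 300 bases, 250 before to 50 after the start site in RefSeq (GRCm38.p6), were given for 36 of the genes, in 57 windows, and held 4 calls. The SNV among them lay in Lyl1, a helix-loop-helix gene of stem cells with no call in its body. It is shown because it is the only SNV in these windows, with the changed base in capitals, on the plus strand at chr8:84701237-84701266.
Lyl1 promoter, reference: gtcaggacacggcaAggccacattaccaga
T-MPAL carried A>C there in 3 of 12 reads (25%, interval 5.49 to 57.2%) at a quality of 25.7, 206 bases before the start site. The others were an insertion of GGCC before Lef1 in the control (4 of 10 reads) and deletions in a Tcf12 window in B-ALL (2 of 10) and T-ALL (6 of 13). All 4 were private, and each had a quality under 40.

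Copy number calls covered 2 of the 45 genes, Runx1 and Erg, both at 3 copies, in B-ALL and in AML. In B-ALL, Runx1 lay in a gain of 1692 kb at chr16:92096001-93788000 and Erg in one of 895 kb at chr16:94901001-95796000. In AML, Runx1 lay in a gain of 1974 kb at chr16:91814001-93788000 and Erg in one of 3274 kb at chr16:94712001-97986000. Each gene lay wholly within its call, and the Runx1 gains of both libraries ended at the same 1 kb step. Of all protein-coding genes, 2.96% were named in gains in B-ALL and 3.04% in AML, against 2 of 45 (4.44%) here, so the share is near the background.

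No member was in a gain in T-ALL, M-MPAL, T-MPAL or the control, where gains named 0.199%, 3.69%, 4.06% and 0.301% of protein-coding genes. No member was in a loss in any of the 6 libraries read. Losses named 3.14% of protein-coding genes in B-ALL and 3.86% in M-MPAL. In T-ALL, AML, T-MPAL and the control they named at most 0.0462%. Against these shares, 0 of 45 does not set the genes apart. None of the 45 genes lies on chromosome 15 or 19. Of the 50 other blood genes, Bcl6, Cebpd, Ets2 and Hes1, all on chromosome 16, were also in gains in both B-ALL and AML. The nearest calls to other members were gains 36.1 kb from Notch3 in T-MPAL and 25.1 kb from Ikzf1, the Ikaros gene, in the control. The AML copy number table ended on chromosome 17 at 39849000, before Runx2 and Tcf4, so these have no copy number reading in AML, and the AUL table broke off on chromosome 2 and was not used.

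Read depth gave a relative measure of copy number that does not use those tables. It comes from the same libraries as the copy number calls, so it is not an independent check of them. At the 284 shared SNVs of chromosome 16, the median depth over the library's own median was 1.00 in AML and 0.931 in B-ALL, and 0.690 to 0.731 in the other 5 libraries. Across the chromosomes that hold members, this ratio ran from 0.633 to 3.80 in AML and from 0.635 to 4.85 in the control. A ratio of 1 therefore does not mark the normal copy number, and only libraries at the same sites can be compared. Within 1 Mb of Runx1, 5 such sites had a median of 1.07 in AML and 1.07 in B-ALL, 0.846 in the control and 0.621 to 0.781 in the other 4, while the gene itself held none. Inside Erg, 3 sites had medians of 0.759 in B-ALL and 0.667 in AML against 0.241 to 0.621 elsewhere, and 21 sites within 1 Mb had 0.759 and 0.767 against 0.469 to 0.690. The window within 1 Mb of Erg reaches on both sides beyond the 895 kb B-ALL gain that holds the gene. B-ALL and AML were thus the highest libraries in all these windows. The 3 sites inside Erg all lay in simple repeats, 2 of them within 13 bases. Around 15 other members with 5 or more such sites within 1 Mb, medians ran from 0.345 to 0.879 in B-ALL and from 0.317 to 0.833 in AML. They reached 1.12 in T-MPAL and 1.05 in M-MPAL, both at Tcf7, which lay in no copy number call. AUL, whose table was not used, stood at 0.700 on chromosome 16. Chromosome 12, which holds Bcl11b and Id2, stood at 0.867 in AUL against 0.724 to 0.808 in the other 6.

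**Figure D4:**
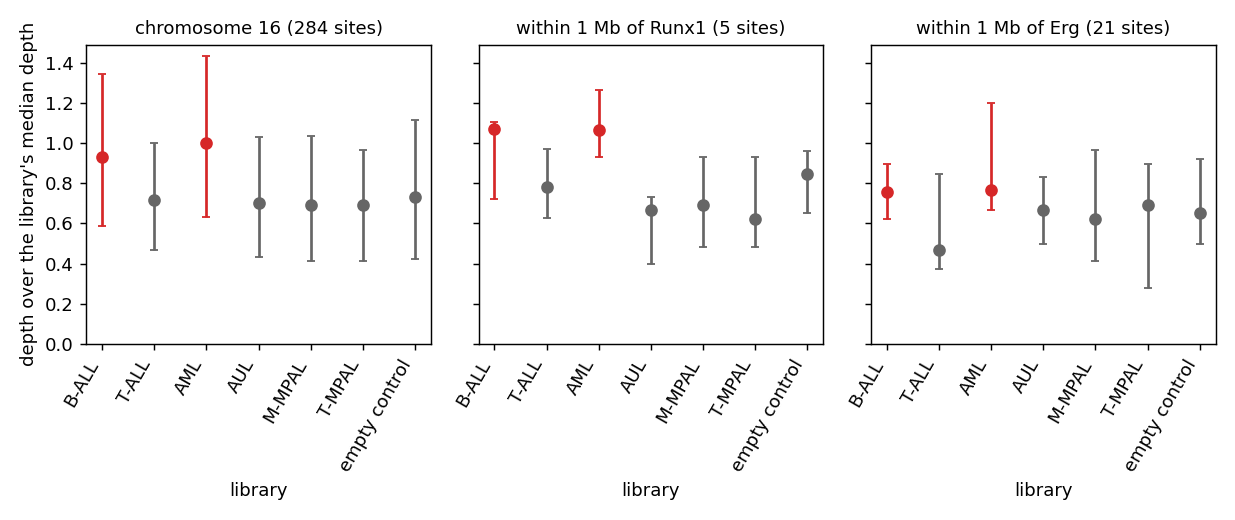
Read depth at SNVs called in all 7 libraries over the library's median depth (y axes), on chromosome 16 and within 1 Mb of Runx1 and of Erg, by library (x axes). Points are medians over sites and bars span the middle quartiles, with the libraries that had Runx1 and Erg called at 3 copies in red. The Erg window reaches beyond the B-ALL gain. B-ALL and AML are the highest points in each panel, at 0.931 and 1.00 on chromosome 16, and the bars of all libraries overlap on chromosome 16.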

How the data were processed

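The names of the deposited tables give samtools for SNVs and INDELs, FREEC for copy number and ANNOVAR for annotation, and per the file headers dbSNP 142 was added. The submitters' processing notes name BWA and mm10, with versions and filters not given in the sources used here. In the AUL tables the sample column is headed Null. Each deposited call carries a quality score (lowest deposited value about 20), read depth and alternative reads, and the copy number tables give whole copies, with 2 as normal.

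Variants were matched by position and both alleles. Genes came from the gene column, older names being mapped through RefSeq (GRCm38.p6), whose spans gave the lengths. The 50 other blood genes were a list of transcription factor and cofactor genes. Intervals are exact Poisson for counts and rates and Clopper-Pearson for shares. The genes, lists and stringent set were chosen with earlier results of these data known. Named were all genes with coding or UTR calls in 1 to 6 libraries, in copy number calls or with stringent private SNVs, and genes without stringent calls; the INDELs, shared variants and printed sequences named beside these were chosen after their values were seen. Alternatives changed depth, quality, repeats, duplications, dbSNP, matching and gene spans. Scripts ran in Python 3.11.15 with scipy 1.17.1 (intervals), pandas 2.3.3, numpy 2.4.6 and, for plots, matplotlib 3.10.9, and the counting was tested on simulated data.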

Additional observations from a re-analysis of the deposited data

How the results depend on the processing

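Of 202 values under alternatives, 137 stayed within 1.5 times the value reported (for depth, within 1 SD over sites) and 65 did not. The 137 include values of 0 that stayed 0. They also include private calls with segmental duplications left out, where no call was removed. The total is therefore not a measure of stability. Private SNVs: a depth of 5 reads gave 10 in B-ALL, 5 in T-ALL and 2 in T-MPAL; a depth of 20 gave 0 in B-ALL and AML and 1 in T-ALL. A quality of 100 gave 0 in B-ALL, T-ALL, AML and the control and 1 in M-MPAL. Without repeats there were 3 in B-ALL, 1 in T-ALL, 4 in AUL and 0 in AML, M-MPAL and T-MPAL. RefSeq spans gave 5 in T-ALL, and letting the partner library share the call gave 6 in M-MPAL and 4 in T-MPAL. AUL held the highest count under all of these except the depth of 5, where it had 9.

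In the order B-ALL, T-ALL, AML, AUL, M-MPAL, T-MPAL and control, private INDELs at a depth of 20 were 23, 34, 27, 17, 22, 15 and 26. At a quality of 100 they were 6, 10, 7, 5, 5, 2 and 2, and without repeats 0, 1, 2, 1, 7, 0 and 1. Counting any INDEL within 10 bases as a match gave 25, 35, 31, 27, 38, 20 and 39.

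Stringent private SNVs without repeats were 3 in AUL and 0 in M-MPAL and T-MPAL; letting the partner share the call gave 1 in AML and 3 in each MPAL fraction. They were the same with 6 alternative reads or a share of 0.3. Coding and UTR calls at a quality of 100 numbered 1, 4, 2, 2, 3, 1 and 1 in the order above, and 3 in B-ALL at 10 reads. Members in copy number calls stayed at 2 in B-ALL and AML under all 3 alternatives. Depth at Erg moved from inside the gene to within 1 Mb in T-ALL (0.469), AUL (0.667) and T-MPAL (0.690). Runx1 had no site inside the gene to compare. The cause of these moves was not tested beyond what each alternative removes.

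No paired analysis was possible because each group has 1 library. Depth limits the shares: the intervals printed beside them are wide at these read numbers.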
